A study of Mus musculus with 20 samples.

Results

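The 8 genes described here define B cells: the B-cell receptor subunits Cd79a and Cd79b, the immunoglobulin constant genes Ighm (IgM heavy chain), Ighd (IgD heavy chain) and Igkc (kappa light chain), the lineage transcription factors Ebf1 and Pax5, and Ms4a1, which encodes CD20. They were chosen by name, as classical B-cell identity genes, and each was found in the 15855 genes of the table of cultured cells and in the 15333 genes of the tumor table. For each gene the cells with at least 1 corrected count, the highest cells and the overlap with 2 macrophage genes in the same cell were measured. The macrophage genes were Csf1r, the receptor for M-CSF, and Adgre1, which encodes F4/80.

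A B cell assembles its receptor from heavy and light immunoglobulin chains, which reach the surface only with the CD79A and CD79B signaling subunits. EBF1 and PAX5 switch on this program and keep the cell in the B lineage, and loss of PAX5 is known to let B-cell precursors take other blood-cell fates. A macrophage needs CSF1R signaling to form and to survive, and F4/80 is its usual surface marker in mice.

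The scRNA-seq data covered 2 B-MF libraries (5237 and 5326 cells), 2 Mo-MF libraries (4846 and 5389 cells) and 4 libraries of sorted cells from 4T1.2 tumors (3180, 2318, 2387 and 3000 cells). B-MF are macrophage-like cells that arose from bone marrow (BM) B cells of mice without cancer, cultured in the conditioned medium of 4T1.2 cells, a mouse breast cancer line. Mo-MF were raised from BM monocytes in the same medium, and both cultures lasted about a week in the study's usual protocol, which used wild-type young female mice. The tumor cells were sorted as tumor-associated macrophages from BALB/c mice. The tumor libraries keep the numbers 2 to 5 of their file, which the labels do not tie to single replicates. The labels do not state that the 2 cultures of a kind came from separate animals, so p-values measure the spread between these samples. A separate ATAC-seq set of 12 libraries came from CSF1R+ and CSF1R- B-cell precursors of BM and spleen of naïve mice, 3 libraries per group. The labels call those cells macrophages as well.

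The median cell held 18350 to 19469 corrected counts in the cultures and 7651 to 8266 in the tumor. Each library shared 3 to 28 barcodes with other libraries of its table. Nearly all culture cells had counts of the macrophage markers: Csf1r was above 0 in 99.6% of the cells of both B-MF libraries and in 97.0% of both Mo-MF libraries, and Adgre1 in 98.5%, 98.6%, 97.0% and 97.5%. Csf1r was also above 0 in 93.4%, 100% and 91.7% of the cells of 3 neutrophil-like culture clusters, so a count above 0 does not by itself mark a macrophage in these corrected counts. The tumor sort was mixed. Csf1r was above 0 in 58.9%, 39.1%, 47.0% and 42.0% of tumor cells and Adgre1 in 21.0%, 13.4%, 16.0% and 16.1%. By their markers, 5331 of the 10885 tumor cells were neutrophil-like, 5000 monocyte/macrophage-like and 242 B-like.

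2 promoters are printed to show the DNA from which a receptor subunit and a lineage factor are read, since the ATAC-seq data below show a peak over both in all 12 libraries. They are RefSeq promoter sequence of GRCm38.p6, 5′ to 3′ on the strand of the gene, with each E-box (CANNTG, the letters bound by E proteins) in capitals. The Cd79a stretch lies at chr7:24897247-24897380 (plus strand) and stops at the GENCODE start of the gene, short of the RefSeq start. The Pax5 stretch lies at chr4:44710695-44710944 (minus strand) and ends just before the RefSeq start.
Cd79a: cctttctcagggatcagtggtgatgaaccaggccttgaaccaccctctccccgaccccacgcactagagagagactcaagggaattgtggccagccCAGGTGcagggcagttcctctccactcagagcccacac
Pax5: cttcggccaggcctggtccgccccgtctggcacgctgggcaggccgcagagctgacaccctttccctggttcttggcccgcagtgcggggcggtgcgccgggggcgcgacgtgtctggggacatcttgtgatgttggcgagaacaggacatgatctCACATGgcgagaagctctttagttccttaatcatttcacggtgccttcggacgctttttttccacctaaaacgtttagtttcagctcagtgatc

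Most B-MF carried none of the 8 genes, and those that carried one mostly had Ighm alone. At least 1 of the 8 was detected in 22.4% and 19.5% of B-MF, in 12.8% and 9.56% of Mo-MF and in 12.5% to 16.9% of tumor cells. Ighm was detected in 992 of 5237 B-MF of replicate 1 (18.9%, exact 95% interval 17.9 to 20.03%) and in 903 of 5326 of replicate 2 (17.0%, interval 16.0 to 17.99%). The Mo-MF shares were 1.86% (90 cells) and 1.503% (81 cells). The Ighm shares of both B-MF libraries thus lay far above those of both Mo-MF libraries. An exact permutation test of 2 against 2 libraries cannot go below p = 0.333, and none was made. All intervals cover counting error only.

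**Figure D1:**
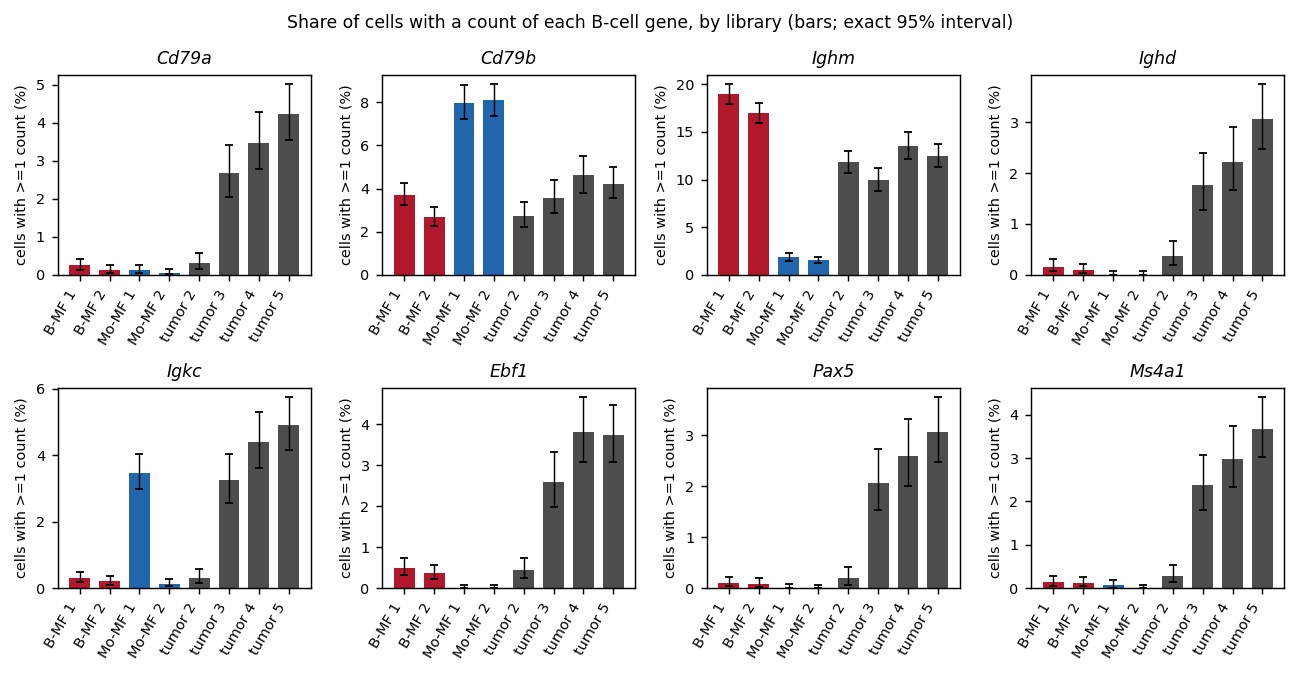
Share of cells with at least 1 corrected count (y axis, percent, own scale for each gene) of each of the 8 genes in the 2 B-MF (red), 2 Mo-MF (blue) and 4 tumor libraries (grey), with exact 95% intervals as bars. Ighm stands at 18.9% and 17.0% in B-MF against 1.86% and 1.503% in Mo-MF, Cd79b is higher in Mo-MF, and tumor library 2 is the lowest of the tumor libraries for 7 of the 8 genes.

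In the mean over all cells of a library, Ighm averaged 0.362 and 0.342 corrected counts per B-MF cell and 0.0456 and 0.0308 per Mo-MF cell. On the log2 scale of the library mean plus 0.01, this difference was 2.93 (SE 0.16, limma adjusted p = 0.000753). Its size depends on the added value, and it was 1.71 with 0.1 and 0.38 with 1 added, both past the threshold. The signal was thin in each cell: 579 of the 992 Ighm-positive B-MF of replicate 1 and 523 of the 903 of replicate 2 held exactly 1 count, and the highest cells held 50 and 63. No other of the 8 genes was detected in 95.1% and 97.0% of the Ighm-positive B-MF. The other genes were rare in all B-MF, with Cd79b in 3.72% and 2.68% and Ebf1 next in 0.496% and 0.357%. These shares are therefore not read as a trait of the Ighm-positive cells. After every culture cell was thinned to 10000 counts, the B-MF share averaged 11.5% and the Mo-MF share 1.13%.

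Across the 8 genes, 5 passed the filter of a mean of 0.01 over the 4 culture libraries and could be tested. Of these, 3 were called higher in B-MF at an adjusted p of 0.05 (13.5% of the 11655 genes tested were called higher) and 1 was called lower (14.6% of the genes tested). The 3 higher genes were Ighm, Ebf1 and Cd79a, and the lower gene was Cd79b. Igkc was tested and not called. Ighd, Pax5 and Ms4a1 were too rare for the filter. Ebf1 and Cd79a reached the filter only through B-MF, so the count of 3 among 5 is a description and no p-value is given for these 2 genes.

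Cd79b was scarcer in B-MF, while the higher B-MF mean of its partner subunit Cd79a rested on few cells. Cd79b was detected in 3.72% and 2.68% of B-MF (195 and 143 cells) against 7.99% and 8.09% of Mo-MF (387 and 436 cells). Its mean was 0.0653 and 0.0563 corrected counts per B-MF cell, below the 0.108 and 0.104 per Mo-MF cell. The log2 difference was -0.72 (SE 0.085, limma adjusted p = 0.00594), and it was -0.36 with 0.1 and -0.060 with 1 added in place of 0.01. All positive cells but a few held 1 to 5 counts: only 6 and 5 B-MF and 2 and 0 Mo-MF held 6 or more. Without the B-MF cells that carried 5 or more of the 8 genes, described below, and without 1 Mo-MF cell, the Cd79b difference was -1.22. Those B-MF cells were picked by the 8 genes and held 28.4% and 40.7% of the Cd79b counts of their libraries, so this shift is a description.

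Cd79a, which encodes the partner subunit, was nearly absent from both cultures. It was detected in 13 and 6 B-MF and in 6 and 3 Mo-MF. Those cells differed in amount, since they summed to 108 and 100 counts for B-MF and to 17 and 3 for Mo-MF. The means were 0.0206 and 0.0188 corrected counts against 0.00351 and 0.000557. They rested on few cells, because the cells with 5 or more of the 8 genes held 93.5% of the Cd79a counts of B-MF replicate 1 and 100% of those of replicate 2. The remaining B-MF held 7 and 0 Cd79a counts. No Mo-MF cell was left out of their 17 and 3 counts, and 1 cell of Mo-MF replicate 1 held 12 of the 17. The 2 cultures were thus not treated alike here, and no order is read from these sums. Without the cells with 5 or more of the 8 genes Cd79a fell under the filter and was not tested.

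The lineage factors were rarer still. Ebf1 was detected in 26 and 19 B-MF, summing to 147 and 99 counts, and in none of the 10235 Mo-MF, which allows up to 0.0293% of cells with a count and sets no limit on cells that express the gene below detection. Against a floor of 3 counts per Mo-MF library the mean was at least 30.03-fold higher in B-MF. These cells were of different kinds: 20 of the 21 cells of a small culture cluster led by the connective-tissue genes Sparc, Cald1 and Col1a2 carried Ebf1, a factor that is also known from stromal and fat cells, and that cluster held no Ighm. Among Ebf1-positive B-MF, 15 of 26 and 11 of 19 also carried Csf1r. Without that cluster and the small cluster led by basophil and B-cell genes, neither Ebf1 nor Cd79a passed the filter.

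Pax5 was detected in 5 and 4 B-MF and in no Mo-MF. Its highest B-MF cells held 8 and 17 counts, and its mean was at least 5.24-fold higher than the same floor. Ighd was detected in 8 and 5 B-MF, with at most 4 counts in a cell, and in no Mo-MF, and its mean was at least 3.94-fold above the floor. Ms4a1 was detected in 7 and 6 B-MF, with up to 20 and 33 counts in a cell, and in 3 and 0 Mo-MF with at most 2.

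Igkc showed how far 1 cell can carry a library mean. It was detected in 16 and 11 B-MF, in 168 Mo-MF of replicate 1 and in 7 of replicate 2. The mean of a B-MF cell was 0.0714 and 0.0460 corrected counts, and that of a Mo-MF cell 3.26 and 0.0160. In Mo-MF replicate 1 a single cell held 15611 of the 15795 Igkc counts, while the other 167 positive cells held no more than 4 each. That cell carried 64 Ighm counts, 12 Cd79a counts and no Csf1r or Adgre1. The log2 difference was -2.11 (SE 2.31, limma adjusted p = 0.544). It turned to 1.38 without Mo-MF replicate 1 and went to -5.60 without Mo-MF replicate 2, where the single high cell sets the only Mo-MF value left, so these are given without a p-value. Without that cell and the B-MF that carried 5 or more of the 8 genes, described below, the difference was -1.51. Those B-MF were picked by these same genes and held 94.4% and 98.0% of the Igkc counts of their libraries. The direction thus depends on which cells are left out. Igkc then reached the filter only through Mo-MF, and no call is read from this value.

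A handful of cells of the B-MF libraries carried most or all of the 8 genes. In B-MF replicate 1, 7 cells carried 5 or more of the 8 genes, and 6 cells did in replicate 2, and 8 of these 13 cells carried all 8. The small cluster led by basophil and B-cell genes held 10 cells of the B-MF libraries, all of them among these 13, and 35 Mo-MF. It met 11 of 12 B-cell and 3 of 3 basophil and mast cell markers and stayed unnamed. No Mo-MF cell carried more than 4. The other B-MF were 4063 and 4289 cells with none of the genes, 1123 and 1010 with 1, 43 and 21 with 2, and 1 and 0 with 3, and no B-MF cell carried exactly 4.

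**Figure D2:**
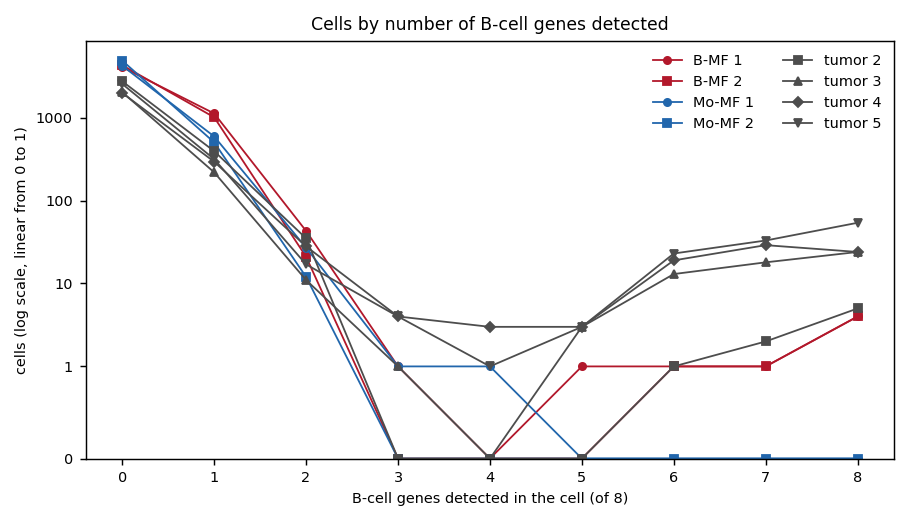
Number of cells (y axis, log scale, linear from 0 to 1) by the number of the 8 B-cell genes detected in the cell (x axis), with 1 line per library. Counts drop steeply to 3 genes and rise again at 6 to 8 genes in the B-MF and tumor libraries, whereas no Mo-MF cell has more than 4.

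These 13 cells held 94.4% and 98.0% of the Igkc counts, 94.1% and 100% of the Pax5 counts and 100% of the Ms4a1 counts of their libraries. By contrast they held only 10.4% and 10.2% of the Ighm counts. Per Igkc count they carried 0.558 and 0.775 Ighm counts, whereas the remaining B-MF summed to 81.0 and 327.4 Ighm counts per Igkc count. The Ighm of the remaining cells therefore came with almost no kappa light chain in these counts. The lambda genes showed no more of a light chain there, with Iglc1 and Iglc2 in 7 and 9 of the 10550 remaining cells against 13 of 13 for both genes in the 13 cells.

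Some other B-cell genes were found mainly in the same 13 cells. Fcmr, the receptor for the IgM constant region, was found in 13 of 13 against 2 of the 10550 remaining B-MF, Blk, a B-cell kinase, in 7 against 3, and Ikzf3, a lymphoid regulator, in 9 against 1. Over the whole lists, 13 of 14 genes of receptor signaling, 11 of 15 regulators and 4 of 6 plasma-cell genes were detected in a larger share of the 13 cells than of the remaining B-MF, and so were 8 of 12 macrophage genes. Among the rest, the kinase Btk was in 3 of the 13 cells against 45.6%, Bcl6 in 2 against 25.6% and Prdm1 in none against 20.5%. Of 12 macrophage genes 10 had a lower median in the 13 cells and 2, Cebpa and Mertk, an equal one, with a median of 3 Csf1r counts against 10 in the remaining B-MF, 27 against 478 for the lysozyme gene Lyz2 and 9 against 35 for Cd68. Since these cells were picked by their B-cell genes, the values are given without a test.

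Csf1r was above 0 in all 13 cells, at 1 to 15 counts, and Adgre1 at 1 to 5. The low values cannot be told apart from what the count correction returns. All 41 B-MF with Csf1r at 0 had at least 3310 genes detected, and none of the 3675 B-MF with fewer genes detected was at 0. Of the 13 cells, 10 lay in that shallow range and 11 held 4 or fewer Csf1r counts. The 2 cells with more held 15 and 9 Csf1r counts together with all 8 B-cell genes, at 11 and 9 Ighm counts. No doublet caller was run, and the part of doublets in these cells was not tested.

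**Figure D3:**
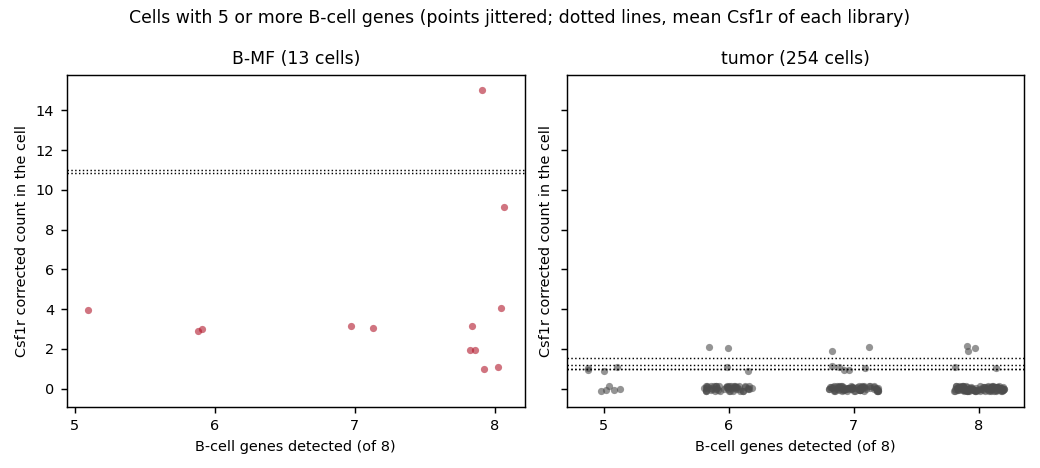
Csf1r corrected counts (y axis) of each cell with 5 or more of the 8 B-cell genes against the number of these genes it carries (x axis, jittered), for 13 B-MF (left) and 254 tumor cells (right), with dotted lines at the mean Csf1r of each library. In B-MF 11 of the 13 cells have 4 or fewer Csf1r counts, and in the tumor 234 of the 254 have none.

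Nearly all Ighm-positive B-MF carried the macrophage genes, and so did the Ighm-negative ones. Csf1r was above 0 in 100% and 99.8% of Ighm-positive B-MF, against 99.5% and 99.6% of Ighm-negative ones. Csf1r and Adgre1 were both above 0 in 99.3% and 98.8% of the Ighm-positive cells, against 98.1% and 98.3%. Their mean Csf1r was 11.1 and 10.6 corrected counts, against 11.001 and 10.9. The difference in the share with Csf1r averaged 0.34 percentage points and turned to -0.074 after thinning. Among Ighm-positive Mo-MF, both macrophage genes were above 0 in 94.4% and 93.8%, against 94.7% and 94.9% of the Ighm-negative cells. With nearly every culture cell above 0 for Csf1r, these shares could hardly differ.

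The Ighm share varied over the cell clusters of the cultures. In the 2 largest B-MF clusters it was 22.4% (937 of 4180 cells) and 16.7% (696 of 4158 cells, macrophage-like), and it was 6.22% in another B-MF cluster, whose cells had fewer genes detected (median 2885, against 3956 and 3407). With B-MF split into 5 groups by genes detected, the Ighm share went from 9.71% in the shallowest to 26.3% in the deepest. In the largest Mo-MF cluster only 0.43% of 5121 cells carried Ighm. The Mo-MF culture also held 3 neutrophil-like clusters and 1 monocyte-like cluster, and there the share was 10.8%, 7.96%, 12.5% and 26.7%. Those 4 clusters held 54, 32, 15 and 32 Ighm-positive cells. Cd79b was detected in 6.85% and 14.6% of the 2 largest Mo-MF clusters, in 38 of 500, 3 of 402 and 0 of 120 cells of the neutrophil-like clusters and in 6 of 120 of the monocyte-like cluster. Its share went from 2.78% in the shallowest to 14.9% in the deepest of the 5 groups of Mo-MF.

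In tumors most cells positive for 6 of the 8 genes were B-like, whereas only 196 of the 407 Cd79b-positive and 215 of the 1305 Ighm-positive cells were. The 242 B-like cells came in unequal numbers from the 4 libraries, with 8, 52, 74 and 108 cells. Each of the 8 genes was detected in most of them, from 74.0% for Ighd, 81.0% for Cd79b, 81.8% for Pax5 and 88.8% for Ighm to 99.6% for Cd79a and 100% for Ebf1. Of the 254 tumor cells with 5 or more of the 8 genes, 241 were B-like, 20 carried Csf1r and 3 carried both Csf1r and Adgre1. No Csf1r value in these cells exceeded 2.

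Ighm was detected in 11.8%, 9.97%, 13.5% and 12.5% of the tumor cells of libraries 2 to 5, with a mean of 11.96% over the libraries. Tumor and culture counts were corrected in separate tables, so no test was made between them. Library 2 had the fewest B-like cells and 88.6% of its Ighm-positive cells carried none of the other 7 genes, against 67.2% to 74.0% in the other libraries. Its Ighm counts lay in B-like cells for only 12.6%, against 58.3% to 67.4% in the others.

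By cell class, monocyte/macrophage-like tumor cells carried Ighm in 16.6%, 16.4%, 17.7% and 16.8%, and neutrophil-like cells in 3.31%, 3.53%, 3.94% and 3.81%. The ranges did not overlap, and the difference averaged 13.2 percentage points, or 8.79 after thinning to 5000 counts per cell. The median monocyte/macrophage-like cell had 2497.5 genes detected and the median neutrophil-like cell 1349. At nearly the same depth (median 2477), T/NK-like cells carried Ighm in 17 of 80 cells (21.3%, exact 95% interval 12.9 to 31.8%). Whether T/NK-like cells were free of Ighm transcripts was not tested, so their share is a comparison and not a background. The pooled share of the monocyte/macrophage-like class (16.9%) was not above the T/NK-like share, and no expression is read from the pooled share. Other classes at like depth lay on both sides of it, with Ighm in 24 of 40 dendritic-like cells, 6 of 71 osteoclast-like cells, 5 of 102 cells of an unnamed cluster and 0 of 19 fibroblast or tumor cell-like cells, which allows up to 15.8% of cells with a count.

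**Figure D4:**
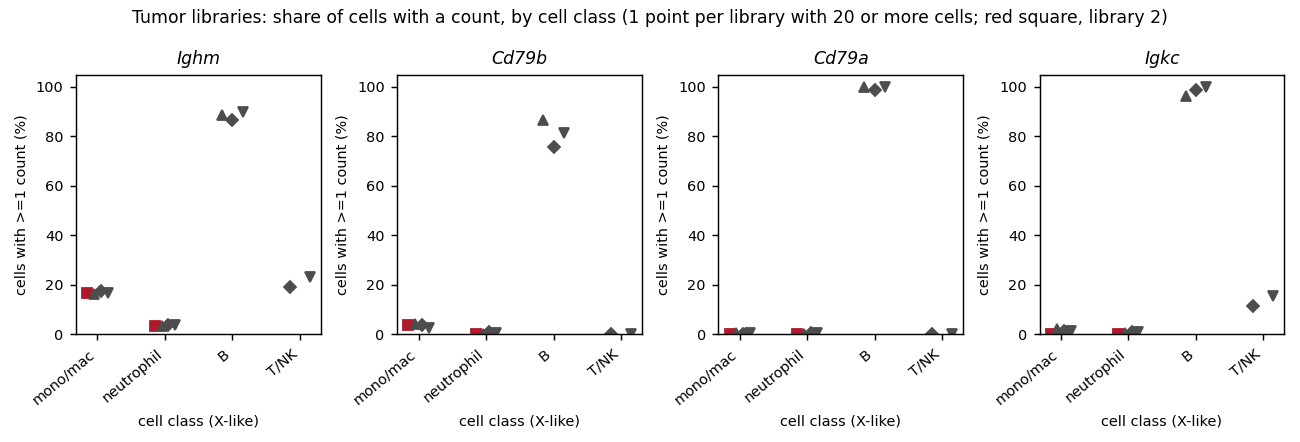
Share of cells with at least 1 corrected count (y axis, percent) of Ighm, Cd79b, Cd79a and Igkc in 4 cell classes of the tumor (x axis), with 1 point per library that has 20 or more cells of the class (red square, library 2). The Ighm share of monocyte/macrophage-like cells is 16.4% to 17.7% in the 4 libraries, that of neutrophil-like cells 3.31% to 3.94%, and Cd79a is near 0 outside B-like cells.

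Within the 5 monocyte-like and macrophage-like clusters of the tumor the Ighm share ran from 5.99% (78 of 1303 cells) and 8.56% through 15.5% and 26.9% to 40.1% (306 of 763 cells of a macrophage-like cluster). The last lay above the interval of the T/NK-like cells, and the others lay within or below it. Cd79b followed the same order at its upper end, with 10.6% in the cluster at 40.1% and 5.16% in the cluster at 26.9%. Over all monocyte/macrophage-like cells Cd79b was detected in 181 of 5000 (3.62%), in neutrophil-like cells in 26 of 5331 (0.488%) and in T/NK-like cells in 0 of 80, which allows up to 3.75% of cells with a count.

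The other 6 genes were each detected in at most 0.900% of monocyte/macrophage-like cells and in at most 0.713% of neutrophil-like cells. Cd79a was detected in 18 of 5000 cells (0.360%) against 22 of 5331 neutrophil-like cells (0.413%), and Igkc in 45 (0.900%) against 38 (0.713%). T/NK-like cells carried Igkc in 7 of 80 cells (8.75%), above both classes, and Cd79a in 0 of 80. Igkc differed between libraries, with 1 monocyte/macrophage-like cell in library 2 and 16, 14 and 14 in the others. The sums of Ighm and Igkc in these cells stood at 580 to 1 in library 2 and at ratios of 1.47, 4.57 and 5.19 in the others, against 0.254 to 0.422 in B-like cells of the same libraries. A few cells weighed on these ratios: 4, 2 and 3 cells with 5 or more of the 8 genes held 74 of 170, 37 of 67 and 45 of 57 Igkc counts of the class in libraries 3 to 5, and without them the ratios were 2.0, 10.1 and 23.9, an alternative chosen after seeing the data. The 2 genes were thus not in 1 ratio over the classes.

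In the tumor, with all cell classes pooled, Ighm-positive cells carried the macrophage genes more often than Ighm-negative cells did. Csf1r was above 0 in 77.1%, 51.9%, 55.1% and 47.7% of Ighm-positive cells of libraries 2 to 5, against 56.4%, 37.7%, 45.7% and 41.1% of Ighm-negative cells. Csf1r and Adgre1 were both above 0 in 39.6% (149 of 376), 19.0% (44 of 231), 23.2% (75 of 323) and 22.7% (85 of 375), against 14.0%, 8.96%, 11.3% and 10.2%. The share was higher in Ighm-positive cells in 4 of 4 libraries for both measures. All 3 genes are found more readily in deeper cells, since over the 5 groups by genes detected the Ighm share went from 1.71% to 22.0% and the Csf1r share from 14.7% to 82.9%. The mean difference for Csf1r was 12.7 percentage points, fell to 4.33 after thinning, and turned to -1.62 when 2 Ighm counts were asked for. Without the B-like clusters it was 22.6. The cell classes also differed in both genes. Over the libraries, Csf1r was above 0 in a mean of 80.4% of monocyte/macrophage-like and 19.3% of neutrophil-like cells. The Ighm means were 16.9% and 3.65%. Overlap within a class was not measured, so these shares are no reading of overlap beyond the mix of classes.

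Cd79b-positive tumor cells carried both macrophage genes in 43.7%, 15.7%, 21.8% and 7.87%. The share was highest in library 2, where B-like cells were fewest. That library also had the largest shares of Csf1r (58.9%) and Adgre1 (21.0%) over all its cells, so the ranking of libraries is no reading of Cd79b itself. Cells with Cd79a hardly met the macrophage genes: both were above 0 in 0%, 1.61%, 1.20% and 3.15% of Cd79a-positive cells, that is in 0, 1, 1 and 4 cells.

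Genes of the wider B-cell pathway were called in both directions between the cultures. For each list below the background is that of all 11655 genes tested, with 13.5% called higher, 14.6% called lower and a median log2 difference of 0.0098. Of 16 genes of B-cell receptor signaling, 10 could be tested, and 3 were higher and 3 lower in B-MF (median 0.08). Cd81, a tetraspanin, was higher by 1.94 (adjusted p = 0.000431) and Blnk, an adaptor of the receptor, by 0.39 (adjusted p = 0.0141). Bank1, a B-cell adaptor, reached the filter only through B-MF, with means of 0.0722 and 0.0794 against 0.0103 and 0.00798, and is given without a p-value. The inhibitory receptor Cd22 was at -2.52 (adjusted p = 0.000209) and the kinase Syk at -0.35 (adjusted p = 0.0153). Cd22 was higher in Mo-MF, with means of 0.692 and 0.657 against 0.114 and 0.105.

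Of 15 pro- and pre-B genes, 3 were tested, and Cd93 was higher (0.41, adjusted p = 0.0102) and Cd24a (-2.97, adjusted p = 0.000235) and Il7r, the receptor for IL-7 (-1.24, adjusted p = 0.000783), were lower. Among 15 regulators of the B lineage, 4 of 11 tested were higher and 2 lower (median -0.020). Id3, an inhibitor of E proteins, had the largest difference, with means of 2.65 and 2.25 against 0.0431 and 0.0494 (log2 5.45, adjusted p = 0.000165). Id2 was at 0.52 (adjusted p = 0.00573) and Bcl6 at -0.42 (adjusted p = 0.0373). Irf4 reached the filter only through B-MF (means of 0.0210 and 0.0163 against 0.00887 and 0.00983) and Bcl11a only through Mo-MF (0.00267 and 0.00451 against 0.0194 and 0.0232). Of 4 plasma-cell genes tested, none was higher and Sdc1, which encodes CD138, was lower (-3.02, adjusted p = 0.000214). The lambda constant genes had 0 counts in Mo-MF and reached the filter only through B-MF, with means of 0.0483 and 0.0306 for Iglc2 and 0.0378 and 0.0171 for Iglc1, and neither passed it without the 13 cells and the Mo-MF cell named above. Of 12 macrophage genes 6 were higher and 2 lower (median 0.26), with Csf1r at means of 11.02 and 10.86 corrected counts in B-MF against 5.87 and 5.66 in Mo-MF (log2 0.92, adjusted p = 0.00111). Without Mo-MF replicate 1, or without replicate 2, the receptor signaling list had 2 genes called higher and 1 lower, and the macrophage list 3 and 0. The regulators had 1 and 1 without replicate 1 and 2 and 1 without replicate 2. All these p-values are limma's with Benjamini-Hochberg adjustment over 11655 genes.

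Genes whose detection most resembled the number of the 8 genes per cell were sought in each group. Only genes detected in at least 20 cells of every library of the group were ranked. Rarer genes were left out, such as Fcmr, found in 13 of the 13 B-MF with 5 or more of the 8 genes and in 2 others. Among the genes ranked in B-MF the closest were Plac8, Scd1, Heg1, Snn and Ets1, with the lowest correlation over the 2 libraries between 0.0977 and 0.170. In Mo-MF they were Cst7, S100a4, Ccr2, Tmem171 and Tgfbi, with 0.101 to 0.123. In the tumor they were Gimap6, Scd1, Ablim1, Ralgps2 and Cd72, a B-cell surface protein, with 0.277 to 0.413 over 4 libraries. The correlations run over cells that share a library and its depth, and those in the cultures are weak.

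The B-cell precursors of naïve mice had ATAC-seq peaks at the starts of most of these genes. Within 1000 bases of the annotated start in mm10 (GENCODE gene models), 6 of the 8 genes had a peak in all 12 ATAC-seq libraries, which held for 47.8% of 22019 gene starts. Ighm had none in any library, as 38.3% of gene starts, and Ighd had 1 in 5, at fold enrichments of 1.96 to 2.62. Inside the Ighm gene, away from its start, 1 or 2 peaks were listed in every library but 1 of CSF1R- spleen. With only peaks of a −log10 q of at least 5 these counts of 6 and 1 did not change (47.5% and 38.7% of gene starts), and within 250 bases 5 genes had a peak in all 12 libraries and 2 in none (44.0% and 43.5%). For an immunoglobulin constant gene the annotated start is that of the constant exons and not that of the rearranged gene. Peaks were called by the authors in each library, and the libraries held 43407 to 76530.

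**Figure D5:**
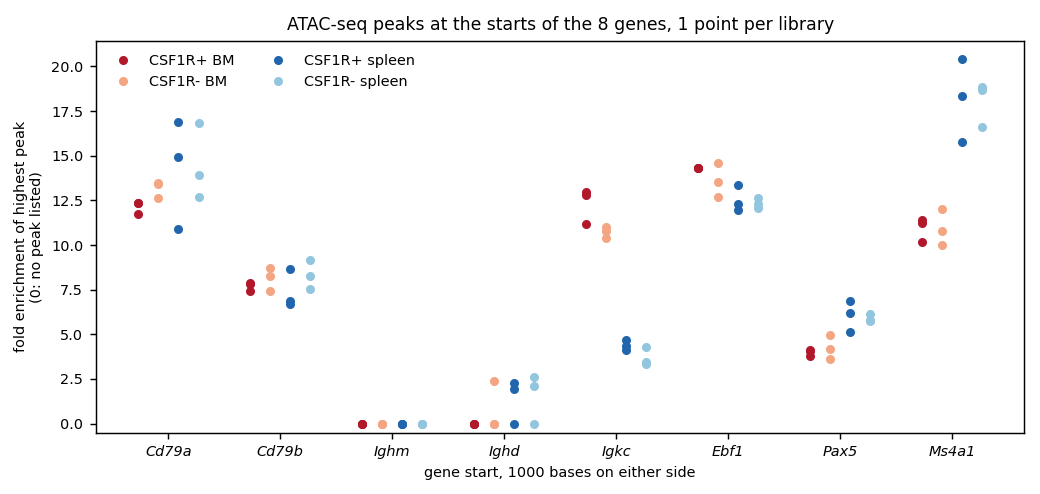
Fold enrichment of the highest ATAC-seq peak (y axis, 0 where none is listed) within 1000 bases of the start of each of the 8 genes (x axis), with 1 point for each of 12 libraries in 4 groups. Igkc is higher in the BM libraries (10.4 to 12.96 against 3.32 to 4.66 in spleen), Ms4a1 and Pax5 are higher in the spleen libraries, and no Ighm peak is listed in this window.

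Ms4a1, a gene of later B cells, stood at a fold enrichment of 10.2, 11.2 and 11.4 in CSF1R+ BM, 12.04, 10.8 and 9.99 in CSF1R- BM, 18.4, 20.4 and 15.8 in CSF1R+ spleen and 18.9, 18.7 and 16.6 in CSF1R- spleen. Ebf1 ran from 11.9 to 14.6 and Cd79b from 6.70 to 9.16 over all 12 libraries. Pax5 ran from 3.62 to 4.95 in BM and from 5.11 to 6.85 in spleen. All 6 BM libraries lay below all 6 spleen libraries for both genes, as they did for 19.6% of the 13591 gene starts with a peak. Igkc lay higher in all 6 BM libraries, as did 11.9% of gene starts. In BM its peak lay before the gene and not over it, at chr6:70725590-70726024 in the first CSF1R+ BM library, upstream of the start at 70726435. A peak inside the gene was listed in each of the 6 spleen libraries, and within 250 bases of the start a peak was listed in the 6 spleen libraries only.

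Between CSF1R+ and CSF1R- cells of BM, Igkc was at 12.8, 12.96 and 11.2 against 10.99, 10.8 and 10.4, higher without overlap (1.41% of gene starts with a peak). Cd79a was at 11.7, 12.3 and 12.4 against 12.6, 13.4 and 13.5, lower without overlap (23.5% of gene starts). An exact 2-sided permutation test of 3 against 3 cannot go below p = 0.1. The other genes with a peak overlapped between CSF1R+ and CSF1R- cells of BM, Pax5 with 3.804, 4.09 and 4.11 against 4.95, 4.18 and 3.62. In spleen all 7 genes with a peak overlapped. There 12.9% of gene starts with a peak lay higher in CSF1R+ cells without overlap, and 0.544% lay lower. Ighm had no peak to compare. Csf1r itself had no peak within 1000 bases of its annotated start in any library, and Adgre1 had 1 in 7, all 6 of BM and 1 of CSF1R+ spleen. Only the outermost annotated start of a gene was examined. Peaks elsewhere in Csf1r were not looked for, so this is no reading of its other starts.

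The promoter table held 3 of the 8 genes, Cd79a, Ebf1 and Pax5. In the 250 bases before the start, Pax5 had 1 E-box and 3 ETS cores (GGAA), counted on both strands, and Cd79a had 2 and 4, of which 1 and 2 lie in the printed stretch. E-boxes occurred in 66.2% and GGAA in 93.4% of the 32851 promoters of that length. Neither the EBF-type palindrome (TCCC, any 2 bases, GGGA), found in 0.779% of promoters, nor the octamer ATTTGCAT, found in 1.60%, was in the windows of the 3 genes. Only exact matches were searched for. Sites that differ from these letters were not counted, so this is no reading of whether the promoters hold a site for EBF1.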

How the data were processed

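Transcripts were counted by the authors with Cell Ranger (mm10), and the deposited values are the natural log of 1 plus a count corrected by SCTransform. Exponentiating gave whole corrected counts within 0.002. ATAC-seq reads were trimmed (cutadapt), aligned (BWA) and called into peaks with MACS2 in each library. The deposited lists give fold enrichment (a ratio) and the −log10 of the p-value and q-value. Counts before correction and ATAC-seq read depth per library were not used here. A file of all peaks (712899 lines, the sum of the 12 lists) was not used.

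A cell was positive at 1 corrected count. Library means over cells were compared as log2(mean + 0.01) with limma 3.58.1 in R 4.3.3 (lmFit, eBayes, Benjamini-Hochberg, threshold 0.05) where a gene's mean over the 4 libraries reached 0.01, and the fit was tested on simulated data. Clusters came from leidenalg 0.10.2 and were named from marker lists. No doublet caller was run. The members and lists were chosen with earlier results of these data known. From each list the up to 5 called genes with the largest difference are named. Peaks were matched to gene starts by overlap with 1000 bases on either side. Shares have exact (Clopper-Pearson) 95% intervals, and where no cell was positive the limit is 3 counts over the number of cells. Alternatives were another added value, filter, scaling, threshold, clustering resolution and window, thinning, the replicate number as a block, and leaving out each replicate. Genes and cells named among the highest, the genes named for the 13 B-MF with 5 or more of the 8, and the cells with 5 or more of the 8 genes, were chosen after their values were seen.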

Additional observations from a re-analysis of the deposited data

Results flagged for a closer look

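Among 32 groups of values over the 4 tumor libraries, 4 had 1 library far from the other 3 by Dixon's criterion. For continuous values chance flags about 1 of 20 groups. That rate does not hold for shares of few cells, so 4 of 32 is not read as an excess. In library 5, 13.4% of the Cd79a-positive cells (17 of 127) carried Csf1r, against 9.64% to 10.0% in the others. In library 2, 16.7% of the Ighd-positive cells carried both Csf1r and Adgre1 (2 of 12 cells), against 0% to 1.09%. In library 2, 14.3% of the Ebf1-positive cells carried Csf1r (2 of 14 cells), against 7.69% to 8.33%. In library 5, 3.26% of the Pax5-positive cells carried both macrophage genes (3 of 92 cells), against 0% in the others. Each rests on few cells, and the share of cells and the mean count of the 8 genes did not pass the criterion in any library.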

How the results depend on the processing

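Of 153 alternative values for 16 results, 121 counted as unchanged and 3 reversed direction. The log2 difference of a single gene counted as unchanged when its direction and its side of the threshold held. A number of genes counted so when it stayed close to the first value. A share or share difference counted so when it moved by less than the spread between libraries. The number of the 8 genes called higher in B-MF, 3 at first, was 1 with 1 added before log2, with a mean of at least 0.1, with both 0.1 settings, without the 2 small clusters, or without the cells with 5 or more of the genes and the highest Igkc cell, and 6 without a filter. The number called lower, 1, was 0 with a mean of at least 0.1, alone or with 0.1 added, and 2 without the multi-gene cells and the highest Igkc cell (Igkc at -1.51). That removal took out B-MF picked by these same genes, so its count is a description. Leaving out 1 replicate gave 3 to 4 higher and 1 to 2 lower, the 2 without Mo-MF replicate 2, and moved Igkc from -5.60 (without Mo-MF replicate 2) to 1.38 (without Mo-MF replicate 1). Such fits leave 1 library in an arm, which is assumed to vary like the other culture. List genes called higher, 10, ranged from 5 (without Mo-MF replicate 1) to 13, with 6 without Mo-MF replicate 2, and those called lower, 8, from 5 (without Mo-MF replicate 1) to 11.

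The Ighm share difference between cultures, 16.3 percentage points, was 10.4 after thinning and 6.77 at 2 counts or more, and 15.3 to 17.3 with 1 replicate left out. The Cd79b difference, -4.83, was -2.68 and -1.18. Ighm in the tumor, 11.96%, was 8.85% after thinning, 5.54% at 2 counts, 16.6% without clusters of other types and 10.1% without the multi-gene cells. The Csf1r difference by Ighm in the tumor, 12.7, was 4.33 thinned, -1.62 at 2 Ighm counts, 22.6 without B-like clusters and 10.1 to 14.8 with 1 library left out. That in B-MF, 0.34, was -0.074 thinned. The class difference, 13.2, was 12.5 at resolution 0.25 and 8.79 thinned. The cause of these shifts was not tested.

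Over all genes, 1573 higher and 1706 lower became 2550 and 2815 with median-ratio scaling, 1870 and 3387 without B-MF replicate 1, 3403 and 1858 without B-MF replicate 2, 645 and 868 without Mo-MF replicate 1, and 609 and 989 without Mo-MF replicate 2. With the replicate number as a block, 1791 were higher and 2026 lower, Ighm had an adjusted p of 0.000210, and the calls of the 8 genes were unchanged (3 higher, 1 lower). The labels tie same-numbered libraries to no shared animal or day. With 2 libraries per culture their deviations give a single correlation, 0.0904 over 11655 genes, and no pairing was established. The correction to a common depth, and 2 libraries per culture, limit what low counts can show.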
